A study of Homo sapiens with 20 samples.

Results

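The genes described here are 10 targets of the stress regulator NRF2 and related antioxidant genes, out of 19029 genes counted in every library of a study of translation initiation in HEK 293T, a human embryonic kidney cell line that grows in culture. They are TXNRD1 (ENSG00000198431) and SRXN1 (ENSG00000271303) of the thioredoxin system, GCLC (ENSG00000001084), GCLM (ENSG00000023909) and SLC7A11 (ENSG00000151012) of glutathione supply, HMOX1 (ENSG00000100292) and NQO1 (ENSG00000181019) of heme and quinone metabolism, FTH1 (ENSG00000167996) and FTL (ENSG00000087086) of iron storage, and SQSTM1 (ENSG00000161011), an autophagy receptor. The members were chosen by gene identifier for their pathway, and the list was drawn up with earlier results of these libraries in view, without a record of which values were used. The treatment and factor comparisons are therefore given as a description of where each gene stood among all genes, not as independent support for the choice.

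NRF2, encoded by NFE2L2, is a transcription factor that KEAP1 holds in the cytoplasm and marks for degradation. Oxidants and electrophiles release it from KEAP1, and it then binds antioxidant response elements in promoters with small MAF proteins. Its targets make and recycle glutathione and thioredoxin, reduce quinones, degrade heme and store iron. FTH1 and FTL are also regulated at initiation: iron regulatory proteins bind an iron-responsive element in the 5′ leader of their mRNAs and block entry of the small ribosomal subunit when iron is scarce.

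The core of the antioxidant response element is written TGACNNNGC. It was searched on both strands in the 250 bases before each RefSeq start (GRCh38.p14), where promoters were listed for 7 of the 10 members. HMOX1, SLC7A11 and FTH1 had no entry. The letters occurred in 3 of 10 promoters of these members, which belong to GCLM and TXNRD1, and in 10.9% of all 35116 windows of the same length. The matches of those genes are printed with the stretch of FTL that holds the loop letters of an iron-responsive element, because NRF2 acts through the former and small subunit loading on ferritin mRNA through the latter. The loop was searched on the transcript strand of the first 50 bases as CAGTG preceded, after 5 bases of any kind, by C, and 1.71% of all such windows held it. Capitals mark the matched letters. The GCLM stretch lies at chr1:93909445-93909474 on the minus strand, the TXNRD1 stretches at chr12:104215670-104215699 and chr12:104286920-104286949 on the plus strand before each of its listed starts, and the FTL stretch at chr19:48965329-48965358 on the plus strand. A match is a description of the sequence and not a tested site.
GCLM: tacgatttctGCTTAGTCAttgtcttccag
TXNRD1, first start: acacgggctaTGACTTCGCtgttgtcaccg
TXNRD1, second start: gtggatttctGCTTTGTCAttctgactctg
FTL: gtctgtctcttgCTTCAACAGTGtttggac

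The matches in GCLM and at the second TXNRD1 start are on the opposite strand, so the capitals show the reverse complement of the core. Their first capital lies at -34 in GCLM and at -99 and -102 before the TXNRD1 starts, and the FTL match begins at base 33 of the transcript.

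Footprints were read by selective translation complex profiling, in which crosslinked, nuclease-trimmed initiation complexes are pulled down through 1 initiation factor and the protected RNA is sequenced. Cells received DMSO, the solvent, or 5 µM i14G1-12 for 1 h, where the series title speaks of an inhibitor of eIF1 and eIF4G1. Complexes were recovered through the HA tag of HA-eIF1 (3 DMSO and 3 i14G1-12 libraries), through eIF4G1 (3 and 3), through the HA tag of HA-eIF2a (2 and 2) and through eIF3 (2 and 2). All 20 libraries are labelled as wild type. How the tagged factors were expressed was not stated in the sources used here. Without an input library, each value is a gene's share of the RNA in an immunoprecipitate, so more mRNA and more complexes per mRNA cannot be told apart. Nor can the factor be told apart from the antibody or tag when immunoprecipitations are compared. Separate cultures are not named in the labels of the replicates. Every test therefore measures the spread between libraries, which may be technical. Column numbers of the eIF1 tables could not be tied to labelled replicates, and those libraries are called a, b and c.

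Total counts ran from 10033 to 1161512 per library, and the members held 0.0728% to 0.130% of them. Library 2 of eIF2a in DMSO stood apart, with 10033 counts and only 118 genes at 10 counts or more, and a count of 0 in it allows up to 159 CPM. Library 2 of eIF3 in DMSO was also shallow, at 59179 counts. CPM is the count relative to library size, scaled by the trimmed mean of M-values (TMM) over all 20 libraries.

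Levels were compared between genes per length, as CPM per kilobase of the counted sequence. Whether footprints of initiation complexes scale with that length was not tested, so the order and the subunit ratios below rest on an assumption. By mean CPM without the division, TXNRD1 was above FTL in eIF1, eIF4G1 and eIF3 complexes in DMSO. SLC7A11 was above FTL in eIF4G1 and eIF3 complexes, and in eIF3 complexes, at 185 CPM, above FTH1 at 158 CPM as well. SQSTM1 and GCLM were also above FTL in eIF3 complexes. Only in eIF2a complexes were both ferritin genes highest. On the per-length scale in DMSO, the ferritin genes led in all 4 immunoprecipitations. FTH1 stood at 200.1 ± 44.7 in eIF1 complexes (SD, n = 3), 152 ± 64.6 in eIF4G1 (n = 3), 105 ± 24.2 in eIF2a (n = 2) and 131 ± 11 in eIF3 (n = 2). FTL, the light chain, stood at 165 ± 75.3, 117 ± 8.21, 154 ± 39.3 and 66.1 ± 25.6 in the same order. The lower of the pair stood above the next gene by more than the sum of the SDs in all 4. The ferritin genes were not separated from each other beyond that sum, except in eIF3 complexes, where FTH1 was above FTL.

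TXNRD1 and SQSTM1 came next, at 49.4 ± 11.3 and 36.3 ± 6.41 CPM per kilobase in eIF1 complexes. They stood at 30.3 ± 3.08 and 22.5 ± 11 in eIF3 complexes, and overlapped each other in all 4 immunoprecipitations. NQO1 had the lowest mean everywhere, with a count of 0 taken as 0 CPM, from 0.632 ± 0.894 in eIF3 to 2.35 ± 3.59 in eIF1 complexes. Between SQSTM1 and NQO1 the other 5 genes lay close together, and most neighbours in the order differed by less than their spread. The exceptions in that stretch were GCLM above GCLC in eIF1 complexes and GCLM above SLC7A11 in eIF2a complexes. The latter rests in DMSO library 2 on 2 counts of each gene. SRXN1 was above NQO1, its neighbour, in eIF4G1 and eIF3 complexes. In eIF3 complexes this rests on 10 and 1 counts of SRXN1 and on 2 and 0 of NQO1. The 0 allows up to 41.7 CPM, above both SRXN1 values (15.9 and 13.9 CPM), so the order there is uncertain.

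**Figure D1:**
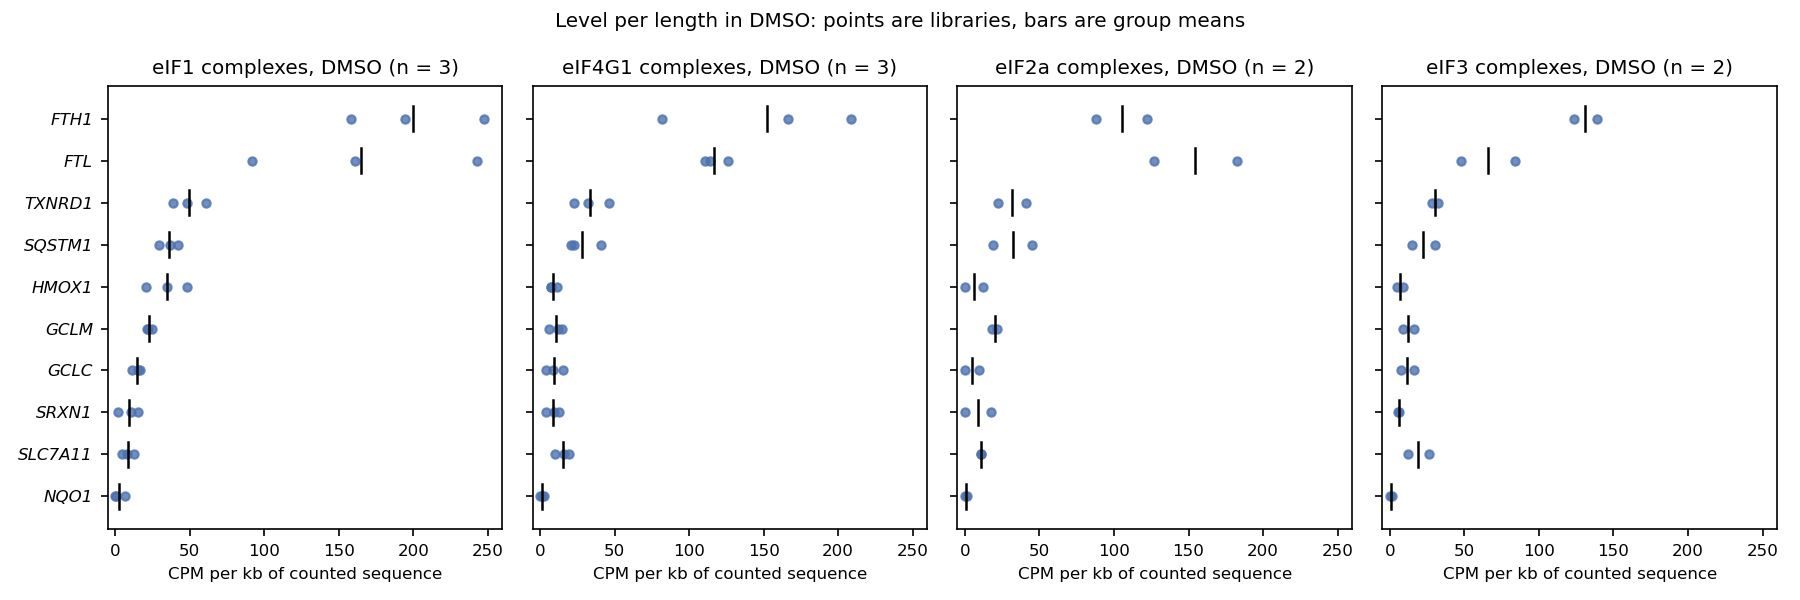
Level of each of the 10 genes per kilobase of counted sequence in DMSO, in 1 panel for each immunoprecipitated factor; points are libraries and bars are group means. FTH1 and FTL lie to the right of all other members in every panel. NQO1 has the lowest mean in each, though its libraries overlap those of other members in eIF1 and eIF2a complexes.

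1 of the 10 genes changed with i14G1-12 by edgeR's quasi-likelihood test with Benjamini-Hochberg adjustment over all genes tested (adjusted p under 0.05). That gene was TXNRD1, and it rose in eIF1 complexes. There, 9 members were tested and 1 was called, where 0.456% of 8338 genes were called. In eIF4G1 complexes 0 of 7 tested members were called, against 0.347% of 7203 genes. In eIF2a complexes 0 of 6 were called, where 0% of 4719 genes were, and in eIF3 complexes 0 of 7, against 0.0159% of 6300 genes. DESeq2 called the same number of members, 1 in eIF1 complexes and 0 in the other 3. At an unadjusted p under 0.05, 1 of 9 members passed in eIF1 complexes, beside 12.4% of all genes, and 1 of 7 in eIF4G1 complexes (TXNRD1 in both), beside 8.65%. In eIF2a complexes 0 passed, beside 1.84%, and in eIF3 complexes 0, beside 1.75%.

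The median log2 fold change of the tested members was -0.05 in eIF1 complexes, beside 0.00 for all genes tested. It was 0.26 beside -0.01 in eIF4G1, 0.13 beside 0.06 in eIF2a and 0.57 beside 0.02 in eIF3 complexes. All 7 tested members had values above 0 in eIF3 complexes, where 51.5% of all genes did, and 6 of 7 in eIF4G1 complexes, where 49.6% did. In eIF1 complexes 3 of 9 lay above 0, and in eIF2a complexes 3 of 6. Without eIF4G1 DMSO library 1 the eIF4G1 median was 0.08, and without eIF3 i14G1-12 library 1 the eIF3 median was 0.35. Without eIF2a DMSO library 1 the eIF2a median was -0.44, which rests on DMSO library 2 as the only control, where the members held 13 counts. NQO1 had too few counts to be tested anywhere. Whether treated and DMSO libraries overlap is given below for single genes as a description. The share of all genes without overlap was not counted.

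**Figure D2:**
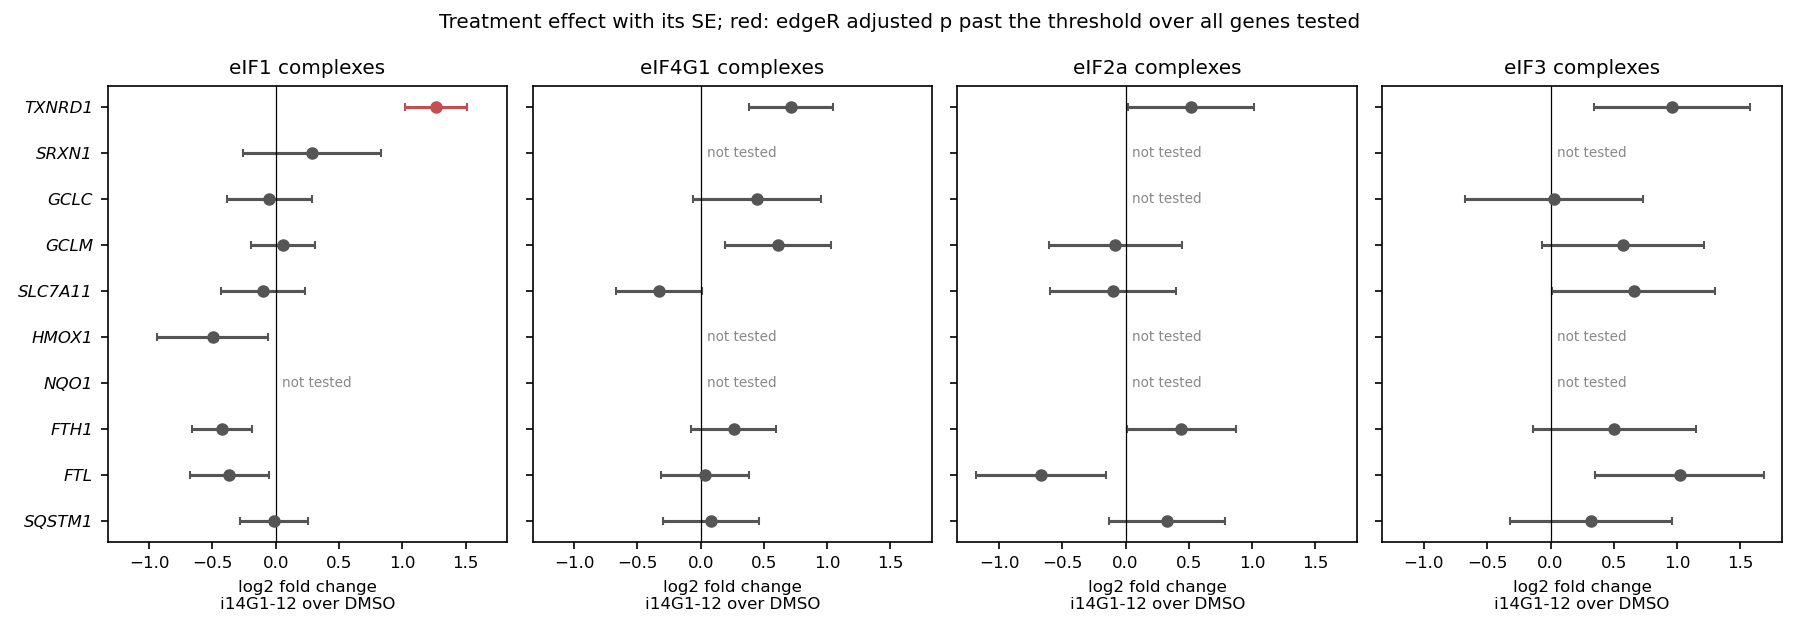
Log2 fold change of each gene under i14G1-12 over DMSO (x axis) with its SE, from edgeR's fit to the libraries of each immunoprecipitation; red marks an adjusted p under 0.05. TXNRD1 in eIF1 complexes, at 1.27, is the single red point, and genes with too few counts are marked as not tested.

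TXNRD1 encodes the cytosolic thioredoxin reductase, which uses NADPH to keep thioredoxin reduced. In eIF1 complexes it stood at 236, 149 and 186 CPM in DMSO libraries a, b and c and at 654, 354 and 402 CPM in i14G1-12 libraries a, b and c. Every treated library was above every DMSO library, and the means were 470.1 ± 161 and 191 ± 43.5 CPM (SD, n = 3 each). The log2 fold change was 1.27 (SE 0.24, edgeR adjusted p = 0.0178), which placed TXNRD1 at rank 9 of 8338 genes by p and above 99.3% of them by fold change. DESeq2 gave an adjusted p of 0.000213. The call was lost without DMSO library b (adjusted p = 0.134), without DMSO library c (0.187), without i14G1-12 library c (0.0521) and with all 20 libraries in 1 fit (0.319), at log2 fold changes of 1.13, 1.26, 1.35 and 1.30. Without treated library a, the highest, the log2 fold change was 0.99 and the adjusted p 0.0296.

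In eIF4G1 complexes TXNRD1 stood at 124, 88.3 and 179 CPM in DMSO libraries 1, 2 and 3 and at 213, 249.99 and 171 CPM under i14G1-12. The groups overlapped at 1 library, and the log2 fold change of 0.71 (SE 0.33) did not pass (edgeR adjusted p = 0.558). In eIF3 complexes it stood at 108 and 125 CPM in DMSO and at 247 and 217 CPM under i14G1-12, which do not overlap, with a log2 fold change of 0.96 (SE 0.62, adjusted p = 1). In eIF2a complexes it stood at 84.6 and 159 CPM in DMSO, the latter from 3 counts, and at 185 and 93.2 CPM under i14G1-12, with overlap.

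The eIF2a log2 fold change was 0.52 (SE 0.50), 0.66 without the shallow DMSO library 2 and -0.54 without DMSO library 1. Of the 6 members tested in all 4 immunoprecipitations, TXNRD1 alone had a value above 0 in each, as did 12.1% of the 4414 genes tested in all 4. The effect of i14G1-12 on TXNRD1 in eIF1 complexes minus that in eIF4G1 complexes was 0.59 on the log2 scale (SE 0.48, edgeR adjusted p = 1), with a 95% interval from -0.34 to 1.53. An unequal effect in these complexes was thus not detected.

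**Figure D3:**
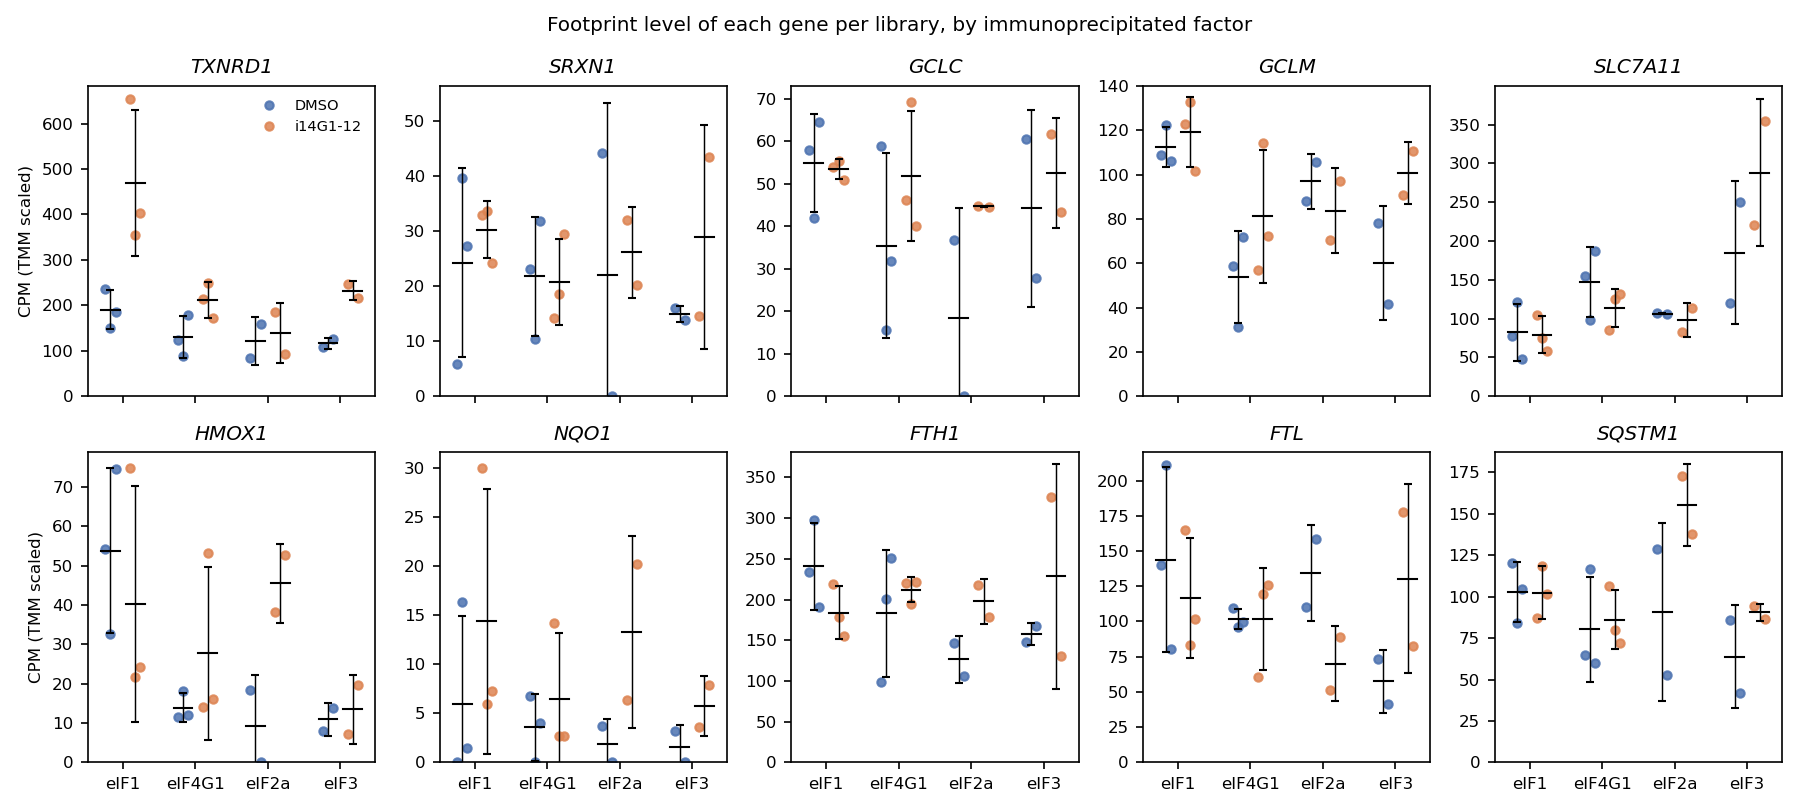
CPM (TMM scaled) of each of the 10 genes in each library, by immunoprecipitated factor, with DMSO in blue and i14G1-12 in orange; horizontal bars are means and vertical bars SD, and each panel has its own axis from 0. In the TXNRD1 panel the 3 treated eIF1 libraries lie at 354 to 654 CPM, above the other 17 libraries, and in the HMOX1 panel the 3 DMSO eIF1 libraries lie at 32.7 to 74.6 CPM and the other 7 DMSO libraries are plotted at 0 to 18.4 CPM.

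SRXN1 encodes sulfiredoxin, which repairs overoxidised peroxiredoxins. Its counts ran from 0 to 34 per library, and it was tested in eIF1 complexes alone among the treatment comparisons. There it stood at 5.79, 39.7 and 27.2 CPM in DMSO and at 33.0, 33.6 and 24.2 CPM under i14G1-12. The treated libraries lay within the range of the DMSO libraries, at a log2 change of 0.29 (SE 0.55, edgeR adjusted p = 0.888).

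GCLC and GCLM encode the catalytic and the modifier subunit of glutamate-cysteine ligase, the rate-limiting enzyme of glutathione synthesis. GCLM stood at 109, 123 and 106 CPM in the eIF1 DMSO libraries and at 123, 133 and 102 CPM under i14G1-12. These overlap, at a log2 change of 0.06 (SE 0.25, edgeR adjusted p = 0.955). In eIF4G1 complexes GCLM stood at 58.8, 31.2 and 71.7 CPM in DMSO and at 56.8, 114 and 72.2 CPM under i14G1-12, again with overlap. The log2 fold change there was 0.61 (SE 0.42, adjusted p = 0.765). In eIF3 complexes the values were 78.1 and 41.7 CPM in DMSO and 90.7 and 110.5 CPM under i14G1-12, without overlap, at 0.57 (SE 0.64, adjusted p = 1). The second DMSO value there rests on 3 counts, and the log2 fold change was 0.34 without it and 1.18 without DMSO library 1. In eIF2a complexes GCLM stood at 88.2 and 106 CPM in DMSO, the latter from 2 counts, and at 70.3 and 97.3 CPM under i14G1-12.

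GCLC was lower. It had 0 to 61 counts per library and stood at 58.8, 15.6 and 31.9 CPM in the eIF4G1 DMSO libraries. Its log2 fold changes were -0.05 (SE 0.34) in eIF1, 0.45 (SE 0.50) in eIF4G1 and 0.03 (SE 0.70) in eIF3 complexes, with edgeR adjusted p-values from 0.868 to 1. The eIF4G1 value was 0.098 without DMSO library 2 and 1.14 without DMSO library 1. GCLC was not tested in eIF2a complexes, where it stood at 36.8 and 0 CPM in DMSO and at 44.8 and 44.6 CPM under i14G1-12.

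Per length, GCLM exceeded GCLC in 16 of the 19 libraries where GCLC had a count. The ratio ran from 0.775 to 2.26 with a median of 1.46. In eIF1 complexes it was 1.66 ± 0.525 in DMSO and 1.72 ± 0.157 under i14G1-12 (SD, n = 3 each), which overlap. The lowest ratio came from eIF4G1 DMSO library 1 and the highest from eIF1 DMSO library b. The 3 libraries at a ratio below 1 were from eIF4G1 (library 1 of each treatment) and eIF3 complexes (DMSO library 1).

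SLC7A11 encodes the cystine transporter subunit xCT, which supplies cysteine for glutathione. In eIF3 complexes it stood at 119.6 and 250.5 CPM in DMSO and at 221 and 355 CPM under i14G1-12, which overlap. The log2 fold change was 0.66 (SE 0.64, edgeR adjusted p = 1), and with 1 library left out it ran from 0.12 (without DMSO library 1) to 1.24 (without the shallow DMSO library 2). In eIF1 complexes it stood at 77.5, 121 and 47.3 CPM in DMSO and at 105, 75.2 and 58.2 CPM under i14G1-12. These also overlap, at -0.10 (SE 0.33, adjusted p = 0.94).

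In eIF4G1 complexes SLC7A11 stood at 155, 98.7 and 187 CPM in DMSO and at 85.2, 125 and 131 CPM under i14G1-12. The log2 fold change was -0.33 (SE 0.34, edgeR adjusted p = 0.849), with overlap. In eIF2a complexes it stood at 107 and 106 CPM in DMSO, the latter from 2 counts, and at 83.1 and 113 CPM under i14G1-12, at -0.10 (SE 0.50). SLC7A11 was the one member whose level in eIF1 complexes lay below the mean of the other 3 immunoprecipitations in DMSO, at a log2 difference of -0.73 (SE 0.33), which did not pass (adjusted p = 0.263). Under i14G1-12 the difference was -0.92 (SE 0.33, adjusted p = 0.0844). It passed when scaled by total counts alone (-1.38), at a minimum count of 30 (-0.98), without eIF3 i14G1-12 library 1 (adjusted p = 0.0404) and without eIF4G1 i14G1-12 library 1 (0.04).

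HMOX1 encodes heme oxygenase 1, the stress-inducible enzyme that opens the heme ring. It was the only member called between immunoprecipitations in DMSO. In eIF1 complexes it stood at 54.4, 32.7 and 74.6 CPM, from 47, 28 and 52 counts. In eIF4G1 complexes it stood at 11.6, 18.2 and 12.0 CPM, in eIF2a complexes at 18.4 and 0 CPM, and in eIF3 complexes at 7.97 and 13.9 CPM. Every eIF1 library was above the 6 others with a count, and the eIF2a library at 0 counts cannot be placed, since its limit is 159 CPM. The log2 difference of eIF1 from the mean of the other 3 immunoprecipitations was 2.06 (SE 0.51, edgeR adjusted p = 0.00858). Of the 9 members tested, HMOX1 alone was called, and 4.08% of 9426 genes were called in this comparison.

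The DMSO values of HMOX1 outside eIF1 rest on 0 to 12 counts per library. The call was lost with scaling by total counts (adjusted p = 0.0732), without eIF1 DMSO library a (0.0672) or c (0.115), without eIF2a DMSO library 1 (0.0957) and without eIF3 DMSO library 1 (0.0706). Without eIF2a DMSO library 1 the log2 difference was 4.06, and the remaining eIF2a library had 0 counts. At a minimum count of 30 HMOX1 was not tested.

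With i14G1-12 HMOX1 stood at 75.0, 21.8 and 24.2 CPM in eIF1 complexes, which overlaps the DMSO range, at a log2 change of -0.50 (SE 0.44, edgeR adjusted p = 0.685). It was -1.22 without treated library a and -0.18 without treated library b. In eIF4G1 complexes the treated libraries stood at 14.2, 53.2 and 16.0 CPM, in eIF2a complexes at 38.4 and 52.7 CPM and in eIF3 complexes at 7.25 and 19.7 CPM. The treated and DMSO libraries overlapped in eIF4G1 and eIF3 complexes. In eIF2a complexes both treated libraries were above DMSO library 1, at 18.4 CPM. DMSO library 2 had 0 counts, which allows up to 159 CPM, and cannot be placed. Low counts left the treatment comparisons outside eIF1 untested. The eIF1 difference under i14G1-12 was 0.61 (SE 0.50, adjusted p = 0.531). It was 1.45 lower on the log2 scale than in DMSO (log2 -1.45, SE 0.73, adjusted p = 1), so an altered difference was not detected, and 0 of 9 members and 0% of 9426 genes were called for that change.

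NQO1 encodes the quinone reductase that serves as a common readout of NRF2. It had 0 counts in 4 libraries and at most 14 counts in any other. The 4 were DMSO libraries, 1 from each immunoprecipitation, where a count of 0 allows up to 3 counts, or 3.47 to 159 CPM. Its highest values were 29.98 CPM in eIF1 i14G1-12 library a, 20.3 CPM in eIF2a i14G1-12 library 2 and 16.3 CPM in eIF1 DMSO library b. At this depth no difference could be tested.

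FTH1 and FTL encode the heavy and light chains of ferritin, the iron storage shell, and the heavy chain carries the ferroxidase activity. Both genes have many processed pseudogenes, and the sources used here do not say how reads that fit several genes were counted, so their counts are uncertain. In eIF1 complexes FTH1 stood at 234, 298 and 191 CPM in DMSO and at 219, 178 and 155 CPM under i14G1-12. The groups overlapped, and the log2 fold change of -0.42 (SE 0.24) did not pass (edgeR adjusted p = 0.487).

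FTL stood at 140.0, 211 and 80.3 CPM in DMSO and at 165, 83.1 and 102 CPM under i14G1-12 in the same complexes, with overlap, at -0.37 (SE 0.31, adjusted p = 0.673). In eIF4G1 complexes FTL stood at 109.9, 96.1 and 99.6 CPM in DMSO and at 60.3, 119.7 and 126 CPM under i14G1-12. The DMSO libraries lay inside the treated range, at 0.04 (SE 0.35, adjusted p = 0.99). FTH1 there stood at 98.3, 200.04 and 251 CPM in DMSO and at 220.0, 194 and 222 CPM under i14G1-12, at 0.26 (SE 0.34, adjusted p = 0.894).

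FTL was the member whose treated libraries lay on opposite sides of DMSO in a pair of immunoprecipitations. In eIF2a complexes it stood at 110.3 and 159 CPM in DMSO, the latter from 3 counts, and at 51.2 and 89.2 CPM under i14G1-12. Both treated libraries were below both DMSO libraries, at a log2 change of -0.67 (SE 0.51, edgeR adjusted p = 1), and -0.58 without DMSO library 2. With 1 library left out it ran from -1.39 (without DMSO library 1) to -0.44 (without treated library 1). In eIF3 complexes FTL stood at 73.3 and 41.7 CPM in DMSO, the latter from 3 counts, and at 178 and 82.8 CPM under i14G1-12. Here both treated libraries were above both DMSO libraries, at 1.02 (SE 0.67, adjusted p = 1), and from 0.35 (without treated library 1) to 1.55 (without DMSO library 1) with 1 library left out. Neither difference passed the test.

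In eIF2a complexes FTH1 stood at 147 and 106 CPM in DMSO, the latter from 2 counts, and at 217 and 178 CPM under i14G1-12. Its treated libraries were both higher, at 0.44 (SE 0.43, edgeR adjusted p = 1), and 0.41 without DMSO library 2. In eIF3 complexes it stood at 148 and 167 CPM in DMSO and at 326 and 130.2 CPM under i14G1-12, with overlap. The log2 fold change there was 0.50 (SE 0.64), and -0.30 without treated library 1 and 1.05 without treated library 2.

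Per length, FTH1 exceeded FTL in 16 of 20 libraries, at a median ratio of 1.30 and a range from 0.483 to 3.08. Both extremes came from eIF2a complexes. The ratio was 0.965 and 0.483 in their DMSO libraries and 3.08 and 1.45 in their i14G1-12 libraries, where the lowest rests on 2 and 3 counts and the highest on 34 and 8. In eIF1 complexes the ratio was 1.32 ± 0.362 in DMSO and 1.21 ± 0.308 under i14G1-12 (SD, n = 3 each), which overlap. In eIF4G1 complexes it was 1.33 ± 0.609 and 1.70 ± 0.818 (SD, n = 3 each), also with overlap. In eIF3 complexes it was 1.46 and 2.90 in DMSO, the latter from 12 and 3 counts, and 1.33 and 1.14 under i14G1-12. Both treated values there were lower, opposite to eIF2a complexes.

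**Figure D4:**
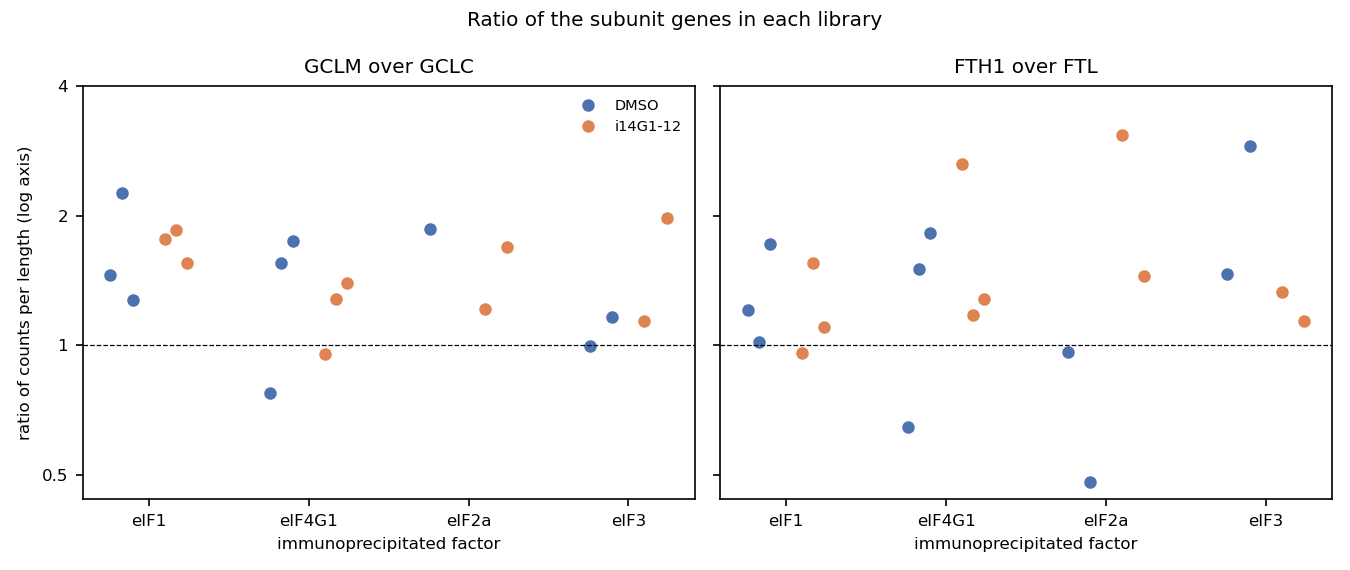
Ratio of counts per length of GCLM over GCLC and of FTH1 over FTL in each library (log axis), by immunoprecipitated factor and treatment; the dashed line marks a ratio of 1. The GCLM ratio lies between 0.775 and 2.26 and the ferritin ratio between 0.483 and 3.08, and both lie above 1 in 16 libraries.

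SQSTM1 encodes p62, which carries ubiquitinated cargo to autophagosomes and binds KEAP1. It had the smallest log2 fold change of the 9 tested members in eIF1 complexes, where it stood at 120.3, 84.1 and 105 CPM in DMSO and at 86.9, 119 and 102 CPM under i14G1-12. The groups overlapped almost fully, at a log2 change of -0.01 (SE 0.27, edgeR adjusted p = 0.991) and a 95% interval from -0.54 to 0.51. In eIF4G1 complexes it stood at 64.6, 117 and 59.8 CPM in DMSO and at 106, 79.8 and 72.2 CPM under i14G1-12, at 0.08 (SE 0.38, adjusted p = 0.977).

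In eIF2a complexes SQSTM1 stood at 129 and 52.9 CPM in DMSO, the latter from 1 count, and at 173 and 138 CPM under i14G1-12. Both treated libraries were higher, at 0.33 (SE 0.46), and 0.25 without DMSO library 2 and 1.24 without DMSO library 1. In eIF3 complexes it stood at 86.1 and 41.7 CPM in DMSO and at 94.3 and 86.8 CPM under i14G1-12, also without overlap, at 0.32 (SE 0.64) and 0.06 without the shallow DMSO library 2 and 1.03 without DMSO library 1. The edgeR adjusted p was 1 in both.

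Between immunoprecipitations in DMSO, 8 of the 9 tested members had a higher value in eIF1 complexes than in the mean of the others, where 53.4% of all genes did. Beside HMOX1, the log2 difference was 0.77 (SE 0.31) for TXNRD1, 0.70 (SE 0.31) for GCLM, 0.62 (SE 0.30) for FTH1 and 0.64 (SE 0.32) for FTL. None of those 4 passed (edgeR adjusted p = 0.176 to 0.351). Over the alternative runs their lowest log2 differences were 0.36, 0.32, 0.23 and 0.26 in the same order. TMM factors were 0.756 to 0.924 in eIF1 DMSO libraries and 1.03 to 1.92 in the other DMSO libraries. The members' share of unscaled counts was 0.0764% to 0.101% in eIF1 DMSO libraries and 0.0735% to 0.130% in the other DMSO libraries. For eIF4G1 against the others 0 of 9 members were called, beside 0.117% of 9426 genes, with GCLM lowest at -0.73 (SE 0.35, adjusted p = 0.94). For eIF2a 0 of 9 were called, beside 0.053%, and for eIF3 0 of 9, beside 0.0955%. At an unadjusted p under 0.05, 5 of 9 members passed for eIF1 (HMOX1, TXNRD1, GCLM and FTH1 higher, SLC7A11 lower), beside 14.6% of all genes. For eIF4G1 1 of 9 did, beside 5.18%, for eIF2a 0, beside 3.7%, and for eIF3 0, beside 5.79%. In eIF3 complexes FTL lay below each of the other 8 DMSO libraries, at -0.88 (SE 0.45, adjusted p = 0.853).

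Under i14G1-12, TXNRD1 was the member called between eIF1 and the other immunoprecipitations. Its eIF1 libraries stood at 470.1 ± 161 CPM (SD, n = 3), and the other 7 treated libraries at 197 ± 54.0 CPM. All 3 were above all 7, at a log2 difference of 1.32 (SE 0.28, edgeR adjusted p = 0.00124). In this comparison 1 of 9 members was called, beside 6.97% of 9426 genes. The call was lost without eIF1 i14G1-12 library a, at 1.00 and an adjusted p of 0.103. The comparison was added after the DMSO values were seen, and it uses the same treated eIF1 libraries as the treatment call. The TXNRD1 difference under i14G1-12 minus that in DMSO was 0.55 on the log2 scale (SE 0.43), with a 95% interval from -0.28 to 1.38. A difference altered by i14G1-12 was thus not detected.

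The effect of i14G1-12 was also compared between immunoprecipitations in 1 fit. For eIF1 minus eIF4G1 0 of 9 members were called, beside 0.0318% of 9426 genes. For any difference among the 4 immunoprecipitations 0 of 9 were called, beside 0.0212%. At an unadjusted p under 0.05 the counts of members were 0 and 0, beside 3.13% and 1.8% of all genes. The widest eIF1 minus eIF4G1 value belonged to HMOX1, at -1.42 (SE 0.81, edgeR adjusted p = 1), and its interval from -3.00 to 0.16 shows how little these counts bound it. The value was -0.62 without eIF4G1 i14G1-12 library 2 and -2.17 without eIF1 i14G1-12 library a.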

How the data were processed

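The 4 tables deposited by the authors, 1 per immunoprecipitation, hold unnormalized counts, each made on 1 transcript sequence per Ensembl ID, per the file headers. Per the submitters' processing notes, cutadapt, Trimmomatic, Bowtie, HISAT2 and featureCounts were used with hg38. Their versions and the handling of reads that fit several genes are not given in the sources used here. Counts were tested on the whole table with edgeR 4.0.16 in R 4.3.3 (TMM, filterByExpr at a minimum count of 10, glmQLFTest, Benjamini-Hochberg threshold 0.05). Treatment was fitted within each immunoprecipitation, and contrasts between immunoprecipitations in 1 fit of all 20 libraries. DESeq2 1.42.0, other scalings, filters, a prior count of 5 and each library left out were alternatives. The steps were tested on simulated data.

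All 10 members are named whatever their values. The members and lists were chosen with earlier results of these data known. Comparison of eIF1 with the others under i14G1-12 was added after the DMSO values were seen. A planned list of other pathway genes, and markers of the cell line, were not analysed here because the tables given pair no Ensembl ID with a symbol beyond the members. No replicate pairing was used. Replicates differed by more than sampling noise (chi-square over its degrees of freedom 1.34 to 10.2), and none were merged.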

Additional observations from a re-analysis of the deposited data

Results flagged for a closer look

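FTL stood on opposite sides of DMSO in a pair of immunoprecipitations. The log2 ratio of its mean CPM under i14G1-12 over DMSO was -0.939 in eIF2a complexes, where both treated libraries lay below both DMSO libraries. In eIF3 complexes the ratio was 1.18, and both treated libraries lay above both DMSO libraries. The difference between these effects was not tested by itself. The test for any difference among the 4 immunoprecipitations gave an edgeR adjusted p of 1 for FTL, and DMSO library 2 held 3 FTL counts in each. With 1 library left out, the edgeR log2 fold change ran from -1.39 to -0.44 in eIF2a and from 0.35 to 1.55 in eIF3 complexes.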

How the results depend on the processing

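No direction of a called difference turned under any alternative run. With total counts alone the log2 fold change of FTL in eIF4G1 complexes was -0.098, of GCLC in eIF3 -0.054, of GCLM in eIF1 -0.082 and of SQSTM1 in eIF4G1 -0.090, each opposite to the value reported. FTL in eIF4G1 was -0.0038 without a filter. SQSTM1 in eIF1 was 0.00034 with all 20 libraries in 1 fit and 0.0030 with DESeq2 size factors. The median of the members in eIF3 complexes was 0.49 with a prior count of 5 and 0.50 with total counts, and in eIF4G1 0.10 with total counts. The number of members called was 0 for eIF1 against the others in DMSO at a minimum count of 30 and with total counts, 2 under i14G1-12 with both settings, and 0 for treatment in eIF1 complexes with all 20 libraries in 1 fit. Without the 10 most abundant genes the members' share of counts was 0.0993% in eIF1 DMSO, 0.108% in eIF1 i14G1-12, 0.0946% in eIF2a i14G1-12 and 0.129% in eIF3 i14G1-12 libraries. The cause of these changes was not tested.

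With 1 library left out at a time, called members ran from 0 to 1 for treatment in eIF1 complexes and for eIF1 in DMSO, and from 0 to 2 for eIF1 under i14G1-12. The members' median ran from -0.44 to 0.11 in eIF2a, from 0.35 to 0.83 in eIF3 and from 0.085 to 0.36 in eIF4G1 complexes. The values of -0.44 and 0.83 each rest on a shallow DMSO library 2 as the only control. In eIF1 complexes FTL ran from -0.66 to 0.044, GCLC from -0.19 to 0.087, GCLM from -0.044 to 0.15, SLC7A11 from -0.36 to 0.32, SQSTM1 from -0.15 to 0.10 and SRXN1 from -0.19 to 0.90. In eIF4G1 complexes FTH1 ran from -0.086 to 0.53, FTL from -0.17 to 0.27 and SQSTM1 from -0.089 to 0.44. In eIF3 complexes FTH1 ran from -0.30 to 1.05 and GCLC from -0.26 to 0.83, and in eIF2a complexes GCLM from -0.58 to 0.071, SLC7A11 from -0.38 to 0.057 and TXNRD1 from -0.54 to 0.91. HMOX1 in eIF1 against the others under i14G1-12 ran from -0.17 to 0.90. A lone library left in a group was assumed to vary like the other groups.

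Same-numbered DMSO and i14G1-12 libraries showed no pairing in eIF4G1 complexes, where their deviations correlated at 0.0092, -0.0763 and -0.119. The correlation was -0.00546 in eIF2a and 0.329 in eIF3 complexes. Both numbers of a 2-library group give 1 value, so pairing could not be decided there. With the replicate number as a block FTL in eIF4G1 was -0.045, and 0 members were called in each of these 3. No block could be fitted for eIF1, whose columns carry no labelled number. DESeq2 gave no adjusted p for members it filtered. Depth limits the genes with few counts (NQO1, HMOX1 and SRXN1) and the values that rest on DMSO library 2 of eIF2a and of eIF3.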
